A study of Homo sapiens with 47 samples.

Results

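Of 13882 H3K4me3 CUT&Tag peaks listed by the authors for PC3 cells, 1216 (8.76%) held a CPM value in SLC6A4-overexpressing cells with a TGM2 short hairpin (shTGM2) that was at most 0.8 of the value in SLC6A4-overexpressing cells without the hairpin. CPM is the number of read pairs in a peak scaled to a common library size. The peaks were chosen by this ratio of 2 CPM values, from 1 library a side, so the ratio is given below as a description and was not tested. CUT&Tag is an assay in which a tagmenting enzyme is tethered to antibody-bound chromatin and cuts the DNA beside the mark.

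PC3 is an established human prostate cancer cell line. The 3 CUT&Tag libraries were 1 of PC3 cells overexpressing SLC6A4 with shTGM2, 1 of PC3 cells overexpressing SLC6A4 and 1 of control PC3 cells, all with an H3K4me3 antibody. For RNA and ChIP, PC3 cells overexpressing SLC6A4 were set against PC3 cells with an empty vector, in 3 libraries each, and the ChIP fit also held 3 libraries of each mark from cells overexpressing DDC. No RNA or ChIP library of shTGM2 cells is used here, so the knockdown of TGM2 itself was not measured, and the labels do not say how many hairpins or clones the line represents.

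Trimethylation of lysine on histone H3 (H3K4me3) is laid down at active and poised promoters by the SET1 and MLL methyltransferase complexes. SLC6A4 is the serotonin transporter of the plasma membrane. TGM2, a transglutaminase, can attach serotonin to the glutamine next to that lysine, which gives the double mark H3K4me3Q5ser. The series title places the study in neuroendocrine prostate cancer and its lineage plasticity.

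Each of the 13882 listed intervals was identical to 1 of the 26514 combined H3K4me3 ChIP peaks, so the CUT&Tag read pairs had been counted within peaks called from ChIP, and overlap with that ChIP peak list is a property of the table and not a result. The lowest value in control cells was 4.01 CPM, the highest ratio of SLC6A4 to control was 1.24998, and 2163 peaks stand in a separate list named as up. With that limit, every peak with a ratio of at most 0.8 must also be lower in shTGM2 cells than in control cells. Listed peaks, here and below, are the 13882, and the 2163 up peaks are not counted among them. The table is named as independent of Q5, yet 1206 of the 1216 peaks (99.2%) overlapped a listed H3K4me3Q5ser region, as did 99.8% of the other 12666 peaks.

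Promoter sequence is shown for the 4 named peaks of lowest ratio that hold a transcription start listed in the RefSeq promoter table used here, to show the DNA at and beside the lower values. CXADR and RIOX1, whose peaks lie over gene starts and have lower ratios than ZNF561, CNIH3 and TFPI, were not matched in that table. Other named peaks over annotated transcript starts, such as those at ST6GAL1 (0.693) and NDRG1 (0.703), also have lower ratios than CNIH3 and TFPI and no sequence here. The 250 bases before the start are given 5′ to 3′ on the gene's strand from RefSeq promoters on GRCh38.p14, with CG dinucleotides in capitals, since promoters are commonly grouped by CG content. ZBTB14 lies at chr18:5297054-5297303 on the minus strand, ZNF561 at chr19:9621233-9621482 on the minus strand, CNIH3 at chr1:224616067-224616316 on the plus strand and TFPI at chr2:187554436-187554685 on the minus strand.
ZBTB14: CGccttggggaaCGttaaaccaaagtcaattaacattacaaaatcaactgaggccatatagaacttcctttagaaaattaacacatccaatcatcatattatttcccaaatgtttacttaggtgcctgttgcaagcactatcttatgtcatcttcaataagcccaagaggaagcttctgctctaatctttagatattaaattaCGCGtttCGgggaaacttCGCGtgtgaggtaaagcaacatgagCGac
ZNF561: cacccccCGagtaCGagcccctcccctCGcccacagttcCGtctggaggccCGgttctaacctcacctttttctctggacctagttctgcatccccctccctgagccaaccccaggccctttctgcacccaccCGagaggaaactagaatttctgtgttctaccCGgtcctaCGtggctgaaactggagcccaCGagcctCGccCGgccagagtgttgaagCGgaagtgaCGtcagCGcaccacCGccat
CNIH3: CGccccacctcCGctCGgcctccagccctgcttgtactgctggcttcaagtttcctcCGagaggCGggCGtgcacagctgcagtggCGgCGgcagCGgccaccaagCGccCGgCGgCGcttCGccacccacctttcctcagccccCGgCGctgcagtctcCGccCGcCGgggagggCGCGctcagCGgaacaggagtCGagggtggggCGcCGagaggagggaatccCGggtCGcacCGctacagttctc
TFPI: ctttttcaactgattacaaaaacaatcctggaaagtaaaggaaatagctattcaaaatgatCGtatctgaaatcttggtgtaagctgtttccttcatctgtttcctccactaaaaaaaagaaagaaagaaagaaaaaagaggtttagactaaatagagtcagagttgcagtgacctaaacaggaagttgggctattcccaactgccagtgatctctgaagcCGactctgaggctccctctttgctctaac

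All 250 bases lay within the peak at CNIH3 and TFPI, 163 of them at ZBTB14 and 134 at ZNF561. The 4 promoters ranged from poor to rich in CG. CNIH3, an auxiliary subunit of AMPA glutamate receptors, had 28 CG in its 250 bases, and ZNF561, a zinc-finger protein gene, had 15. ZBTB14, a zinc-finger transcription factor gene, had 8 CG. TFPI, the inhibitor of the tissue factor pathway of coagulation, had 2. The median over 35116 RefSeq promoters was 11 CG (quartiles 3 and 23).

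The peaks were weak ones for the most part. Their median value was 6.27 CPM in SLC6A4 shTGM2 cells, 8.61 CPM in SLC6A4 cells and 8.33 CPM in control cells. The other 12666 peaks had medians of 20.3 CPM in SLC6A4 shTGM2 cells, 21.05 CPM in SLC6A4 cells and 19.7 CPM in control cells. These values are per whole peak, and the peaks of the set were also narrower, as given below. Per kb of peak, the medians in SLC6A4 cells lay closer, at 12.5 CPM in the set and 17.6 CPM in the others. In read pairs, the median peak of the set rested on 87 pairs in SLC6A4 shTGM2 cells, 101.5 in SLC6A4 cells and 162 in control cells. These pairs were recovered from the CPM values, where 1 pair was worth 0.0721 CPM in SLC6A4 shTGM2 cells, 0.0849 CPM in SLC6A4 cells and 0.0514 CPM in control cells. Summed over the set, the CPM came to 10180 in SLC6A4 shTGM2 cells, 13626 in SLC6A4 cells and 13028 in control cells.

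Ratios in the set ran from 0.378 to 0.8, with a median of 0.7505. The 3 peaks just inside the threshold, at SOCS6, NFE2L1-DT and ETFRF1, had ratios of 0.79996, 0.79997 and 0.79999, and the 3 just outside, at RAPGEF5, SFXN1 and RNU6-915P, had 0.80008, 0.8002 and 0.80027. The median ratio of all 13882 peaks was 0.944, below 1. On the opposite side 191 peaks (1.38%) had a ratio of at least 1/0.8. After division by the median ratio, 653 peaks (4.70%) lay at or under 0.8 and 382 (2.75%) at or over 1/0.8. The exact 95% counting interval of the ratio, which covers counting error only, lay wholly below 1 for 684 of the 1216 peaks, below the median ratio for 369 and below 0.8 for 24. Over all 13882 peaks it lay below 1 for 1584 (11.4%) and below the median ratio for 489 (3.52%). The intervals use the same read pairs that chose the peaks, so these counts are a description and not a test.

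**Figure D1:**
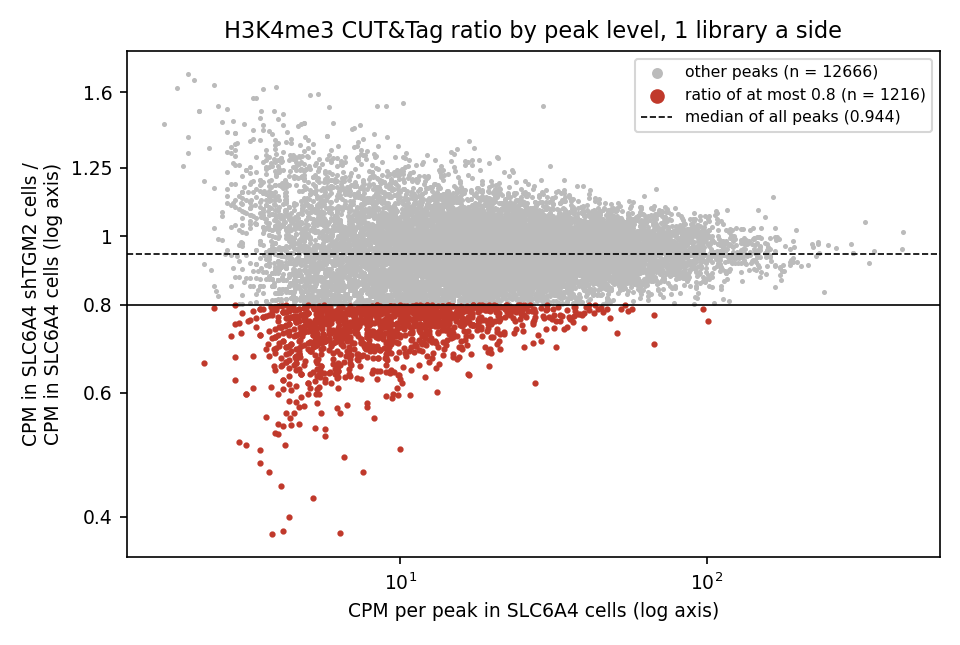
Ratio of CPM in SLC6A4 shTGM2 cells to CPM in SLC6A4 cells (vertical log axis) against CPM in SLC6A4 cells (horizontal log axis), 1 point a peak. Red points are the 1216 peaks at or under 0.8 (solid line); the dashed line is the median ratio of 0.944, and the cloud narrows with rising level.

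The share of peaks in the set went with their level. Peaks were split into deciles by CPM in SLC6A4 cells. In the lowest decile 23.1% were in the set, in the fifth 6.91%, and in the highest 0.360%, which was 5 of 1389 peaks. The central ratio barely moved over the same deciles, with a median of 0.933 in the lowest and 0.955 in the highest, while the upper 95th percentile of the ratio was 1.30 in the lowest and 1.05 in the highest. The SLC6A4 value is the denominator of the ratio, so this trend uses the measure that chose the peaks and is a description of them.

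**Figure D2:**
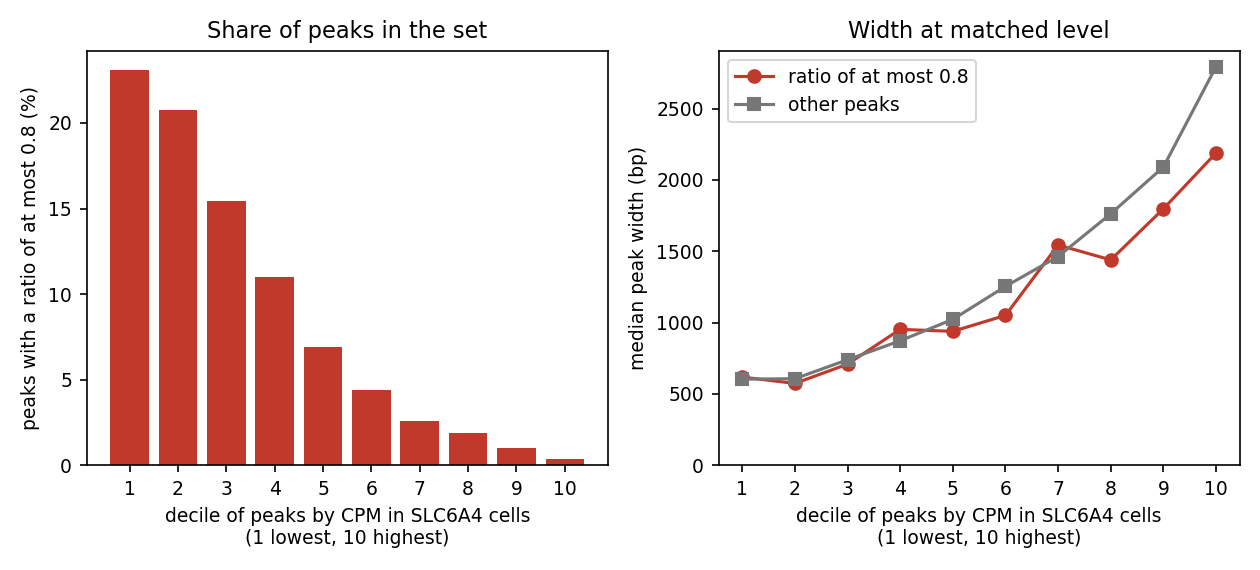
Left, percentage of peaks with a ratio of at most 0.8 in each decile of peaks by CPM in SLC6A4 cells. Right, median width in bp of the peaks in the set (red circles) and of the other peaks (grey squares) in the same deciles; the share falls from 23.1% to 0.360% and both sets are wider at the highest levels.

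The peaks were narrow. Their median width was 760.5 bp, against 1265 bp for the other peaks, and their range was 155 to 7379 bp. Under 500 bp were 27.7% of the set and 12.7% of the others, and at least 2000 bp wide were 7.98% and 26.5%. At matched level the set had the smaller median in 7 of 10 deciles. In the lowest decile the medians were 618.5 bp in the set and 604 bp in the other peaks, in the third 709 bp and 740 bp, in the eighth 1440 bp and 1763 bp, and in the highest 2189 bp and 2794.5 bp. In all the set covered 1153.3 kb of the 20624.6 kb in the table.

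Fewer of the peaks lay at gene starts. Within 1000 bp of an annotated gene start were 821 of 1216 (67.5%), against 80.4% of the other peaks. Exons held 12.6% and 10.7%, introns 12.01% and 6.08%, and sequence outside genes 7.57% and 2.63%. When starts of every annotated transcript were used, 83.1% of the set and 93.3% of the others lay within 1000 bp of one. The set took 21.6% of the peaks outside genes, 15.9% of intron peaks, 10.1% of exon peaks and 7.46% of promoter peaks, and 4 of 23 peaks on unplaced scaffolds. Among peaks below the median level the shares were 24.9% outside genes and 14.2% at promoters, and among the stronger ones 5.56% and 1.87%. Across 23 chromosomes the share of peaks in the set ran from 6.82% on chromosome 19 to 12.3% on chromosome 8, with 12.2% on chromosome 4.

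Base composition in the 300 bases around the peak centre was close to that of the table. Median GC was 52.0% in the set and 51.3% in the other peaks, and the ratio of observed to expected CG was 0.574 and 0.537. The GC box (GGGCGG, read on both strands) was present in 28.6% of the set and 26.4% of the others, and the CCAAT box (CCAAT) in 27.4% and 28.9%. An AP-1 motif (TGANTCA) was in 4.70% and 5.99%, and an ETS motif (CCGGAAGT) in 0.413% and 1.21%.

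Adjacent peaks were also counted in pairs. Of 3208 pairs of adjacent listed peaks with under 1000 bp between them, 43 had both in the set and 437 had 1. Of all listed peaks 8.76% were in the set. In 327 of those 437 pairs the peak in the set had the lower CPM in SLC6A4 cells. By that same value 11.8% of the whole set and 53.8% of the other peaks lay at or above the table's median, so nothing is read from these counts. Fragments that span neighbouring peaks are shared between them in the table, so such pairs are not independent.

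Among the 143 peaks of the set at or above the table's median level, the lowest ratio was at CXADR, which encodes the coxsackievirus and adenovirus receptor, a cell adhesion protein of tight junctions. That peak (chr21:17512760-17514521, 1762 bp, over the gene start) had 16.9 CPM in SLC6A4 shTGM2 cells, 27.4 CPM in SLC6A4 cells and 26.5 CPM in control cells, a ratio of 0.618 with a counting interval of 0.520 to 0.734. SLC6A4 and control cells lay together there, and the shTGM2 library lay below both, as it must in every peak of the set.

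The ZBTB14 peak (chr18:5296465-5297216), whose promoter is printed above, had 12.8 CPM in SLC6A4 shTGM2 cells, 19.5 CPM in SLC6A4 cells and 15.7 CPM in control cells. Here control cells lay between the others, with a ratio of 0.654 (0.535 to 0.799). ZNF561 (chr19:9620399-9621366) had the same order, at 14.5 CPM in SLC6A4 shTGM2 cells, 20.6 CPM in SLC6A4 cells and 16.6 CPM in control cells, a ratio of 0.703 (0.580 to 0.851). A pair of peaks on either side of the start of PLEKHA7, which encodes an adherens junction protein, gave 0.692 and 0.706. The first (chr11:17014595-17015436) had 13.6 CPM in SLC6A4 shTGM2 cells, 19.7 CPM in SLC6A4 cells and 15.8 CPM in control cells. The second (chr11:17013459-17014171) had 19.2, 27.2 and 22.5 CPM in those cells, and both peaks fell in 1 H3K4me3Q5ser region.

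The remaining peaks in this group of 10 were at ST6GAL1, a sialyltransferase gene of the Golgi (ratio 0.693), MLLT3, a subunit gene of the super elongation complex (0.696), RIOX1, a histone and ribosomal protein hydroxylase gene (0.697), an intron within PGK1, which encodes a glycolytic kinase (chrX:78105024-78109420, 0.683), and an exon of NDRG1, a stress-responsive gene (chr8:133294592-133297198, 0.703). NDRG1 had the highest level of these, at 47.4 CPM in SLC6A4 shTGM2 cells, 67.4 CPM in SLC6A4 cells and 74.2 CPM in control cells, with control cells the highest of the 3.

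**Figure D3:**
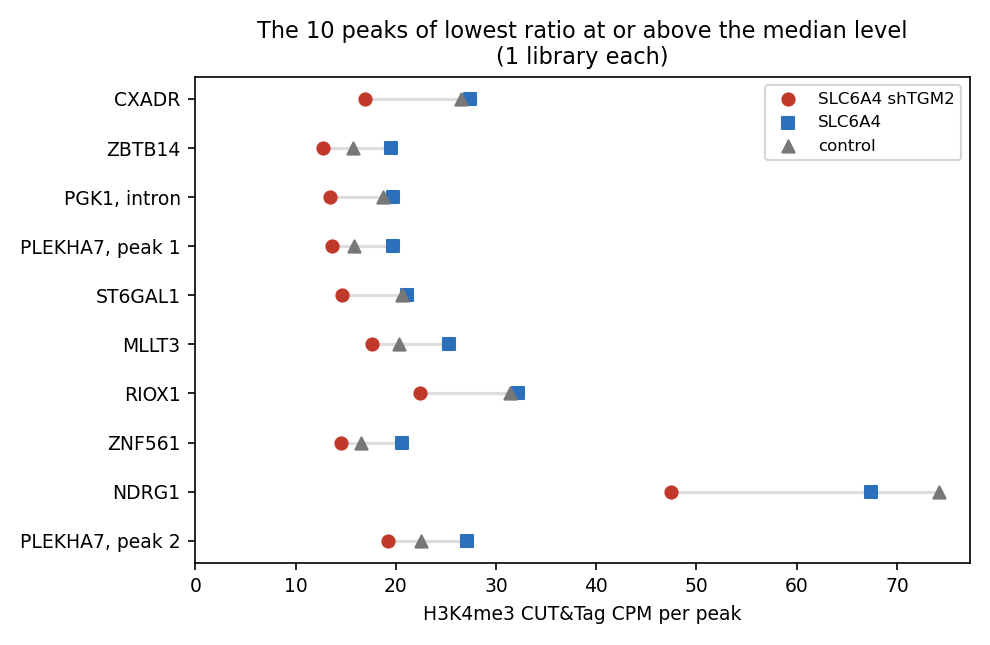
H3K4me3 CUT&Tag CPM (horizontal axis) of the 10 peaks with the lowest ratio among those at or above the median level, 1 symbol a library. In each the SLC6A4 shTGM2 library (red) lies furthest left, as it must in every peak of the set. Control (grey) lies close to or below SLC6A4 (blue) except at NDRG1.

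The 8 peaks of the set with the highest CPM in SLC6A4 cells ran from 52.6 to 101 CPM there and had ratios of 0.703 to 0.7998. They lay 3031 bp from WASH9P on chromosome 1, in PRKG1, at NDRG1, at ZNF365, near FZD8, at ZHX2, at BTBD3 and near ZNF217. PRKG1 is the cyclic GMP-dependent kinase, FZD8 a Wnt receptor and ZNF217 a transcription factor amplified in several cancers. The peak in PRKG1 (chr10:51074235-51076204) had 76.4 CPM in SLC6A4 shTGM2 cells, 96.9 CPM in SLC6A4 cells and 91.0 CPM in control cells. Among the 6 widest were a 7379 bp peak over a transcript start of NR3C1, the glucocorticoid receptor gene (chr5:143395605-143402983, ratio 0.739), and a 7318 bp peak at TFPI (chr2:187547752-187555069, 0.770). The TFPI peak holds the RefSeq start whose promoter is printed above. It lies 10691 bp from the annotated start of the gene, and a transcript of CALCRL-AS1 also starts within it.

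The 12 peaks with a ratio of at most 0.5 had 1.44 to 4.98 CPM in SLC6A4 shTGM2 cells, 3.48 to 9.97 CPM in SLC6A4 cells and 4.06 to 9.13 CPM in control cells. At MTSS1, a scaffold gene of the actin cytoskeleton (chr8:124727690-124728509), the values were 2.42 CPM in SLC6A4 shTGM2 cells, 6.36 CPM in SLC6A4 cells and 6.58 CPM in control cells, a ratio of 0.380 (0.249 to 0.585).

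The ChIP libraries give H3K4me3Q5ser and H3K4me3 in cells with SLC6A4 against empty vector, which the choice of peaks did not use. Before those values it must be said that the 3 libraries of each ChIP group differed from one another by little more than sampling noise, with chi-square per degree of freedom of 0.992 to 1.14 in every pair of libraries, against 2.70 to 7.77 in RNA. The adjusted p-values below therefore measure counting noise rather than spread between cultures, and single-library values are given. With libraries within that noise counted once, a setting chosen after seeing the data, SLC6A4 kept 2 libraries of each mark and empty vector 2 of H3K4me3Q5ser and 1 of H3K4me3.

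Per length, regions whose only listed peaks were in the set had a smaller median of H3K4me3Q5ser than regions with only other peaks, though near that of all regions. This is a description with no test. The 19535 counted regions included 1151 that overlapped a peak of the set, and in 685 of them no other listed peak lay. Up peaks were not counted here, though all of them overlapped an H3K4me3Q5ser region. Those 685 regions, with a median length of 3826 bp against 7652 bp for the 8657 regions with only other peaks, had a median of 6.41 to 6.45 CPM per kb of H3K4me3Q5ser in the SLC6A4 libraries and 6.99 to 7.03 in the empty-vector libraries. Regions with only other peaks had 9.26 to 9.27 and 9.17 to 9.19 CPM per kb. H3K4me3 was 10.3 to 10.6 CPM per kb in SLC6A4 libraries and 10.0 to 10.1 in empty-vector libraries at regions of the set, against 9.53 to 9.55 and 9.31 to 9.35 at the other regions. Empty-vector input was 8.76 to 9.01 against 8.79 to 8.81 CPM per kb. SLC6A4 input was not analysed here. Region length differs between the sets, and its part in these levels was not tested.

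Changes with SLC6A4 went both ways. Of the 1151 regions, H3K4me3Q5ser rose in 478 (41.5%) and fell in 512 (44.5%) by edgeR's quasi-likelihood test with Benjamini-Hochberg adjustment at 0.05. Over all 19535 regions 41.0% rose and 41.5% fell, so the shares of the set lie near the background. Asking also for a change by at least the inverse of 0.8, in either direction, gave 268 rises (23.3%) and 310 falls (26.9%), with 26.9% and 28.7% over all regions. The median log2 change was -0.03 in the set and -0.01 over all regions. In the 685 regions with no other peak it was -0.04 (quartiles -0.42 and 0.31), against 0.04 (quartiles -0.25 and 0.33) in the 8657 regions with only other peaks. Falls past that limit made up 30.1% of those 685 regions, 19.4% of the 8657 and 37.2% of the 9727 regions that hold no listed peak, and rises 23.9%, 25.8% and 28.3%. Regions with no listed peak were the shortest, with a median of 1353 bp, and the part of region length and read depth in these shares was not tested.

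For H3K4me3, 405 of 1151 regions rose (35.2%) and 381 fell (33.1%). Of the 18972 regions tested 31.9% rose and 29.6% fell. With that limit 267 (23.2%) rose and 252 (21.9%) fell, against 23.5% and 20.6%. The median log2 change was 0.02 in the set and 0.02 over all tested regions. Counting libraries within sampling noise once gave 476 rises and 506 falls of H3K4me3Q5ser and 406 rises and 367 falls of H3K4me3.

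**Figure D4:**
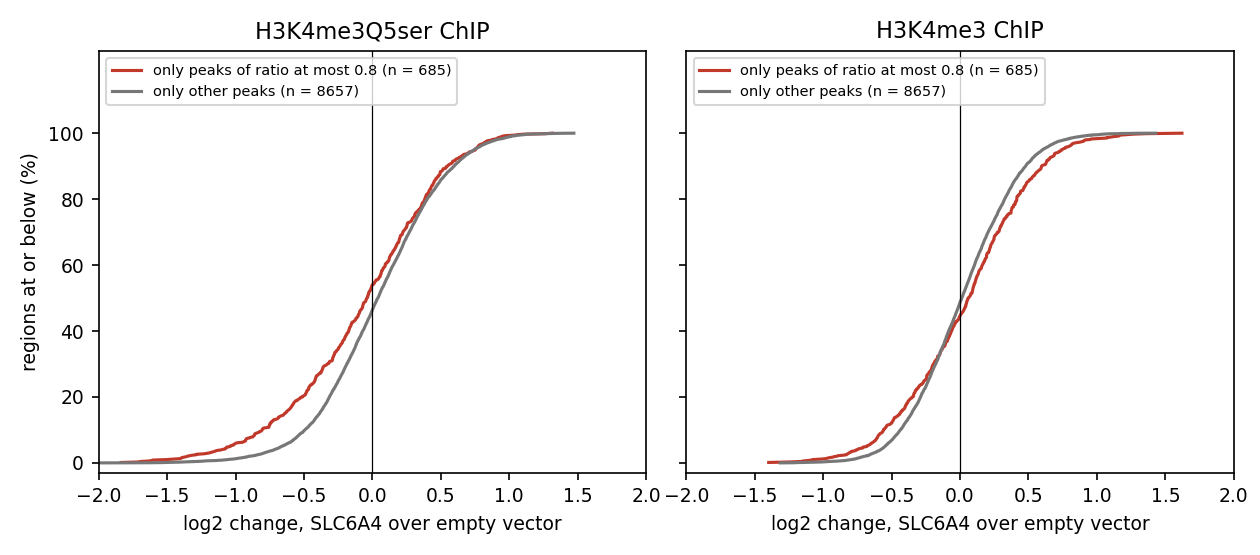
Cumulative percentage of regions (vertical axis) by log2 change in SLC6A4 over empty vector (horizontal axis), for H3K4me3Q5ser ChIP (left) and H3K4me3 ChIP (right). Regions whose listed peaks all had a ratio of at most 0.8 (red, n = 685) or were all other peaks (grey, n = 8657) are shown. Up peaks were not counted. The medians were -0.04 and 0.04 for H3K4me3Q5ser and 0.06 and 0.01 for H3K4me3. The red curve lies above the grey one over most of the range below 0 in both panels.

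The TFPI region (chr2:187548194-187555698) fell in both marks. H3K4me3Q5ser there was 61.9, 56.6 and 57.6 CPM in the SLC6A4 libraries and 153, 160 and 152 CPM in the empty-vector libraries, a log2 change of -1.35 (SE 0.03, edgeR adjusted p = 1.6e-74). H3K4me3 was 93.1, 90.6 and 91.4 CPM in SLC6A4 and 205, 203 and 195 CPM in empty vector, with no overlap between groups in either mark. The H3K4me3 CUT&Tag peak at TFPI did not show this fall, with 14.4 CPM in SLC6A4 cells and 13.7 CPM in control cells (1 library each). The region around MAP2K6, a kinase gene of the p38 pathway, fell in H3K4me3Q5ser to 52.1, 50.0 and 51.8 CPM in SLC6A4, against 135, 133 and 127 CPM in empty vector, and its CUT&Tag peak had a ratio of 0.561. The rises of H3K4me3Q5ser with the smallest adjusted p were at ZMIZ1-AS1, PLEC and ANAPC2. ANAPC2 is a core subunit gene of the anaphase-promoting complex. Its region had 182, 178 and 177 CPM in SLC6A4 and 84.1, 81.3 and 83.6 CPM in empty vector. Such counts cover whole regions. These were 14440 bp at ZMIZ1-AS1, 33592 bp at PLEC and 23928 bp at ANAPC2, with peaks of the set of 414, 621 and 168 bp. Other listed peaks lie in each of them, as in the regions at MAP2K6 (5884 bp) and ZNF667-AS1 (10153 bp). For H3K4me3 the ZNF667-AS1 region rose to 148, 147 and 150 CPM in SLC6A4, against 55.4, 56.4 and 58.5 CPM in empty vector. At MTSS1, whose CUT&Tag ratio was among the lowest, H3K4me3 was 116, 113 and 105 CPM in SLC6A4 and 50.4, 50.0 and 53.8 CPM in empty vector. The H3K4me3 CUT&Tag peak at MTSS1 had 6.36 CPM in SLC6A4 cells and 6.58 CPM in control cells. No listed peak has a ratio of SLC6A4 to control above 1.24998, so a rise as large as that of ChIP at MTSS1 could not appear among them. The MTSS1 values also cover unlike spans, 4777 bp in ChIP and 820 bp in CUT&Tag. The difference between ChIP and CUT&Tag at TFPI and MTSS1 was not tested.

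RNA was measured in SLC6A4 and empty-vector cells, so it does not read the knockdown. SLC6A4 itself had 89.7, 112 and 133 normalised reads in the SLC6A4 libraries and 0, 0 and 0.890 in the empty-vector libraries, and DDC had at most 2.86 in any. TGM2 had 32534, 33440 and 32542 in SLC6A4 and 20834, 19823 and 18968 in empty vector, with a limma log2 change of 0.73 (SE 0.05, adjusted p = 7e-09). None of the 3 genes had a listed peak within 1000 bp of its start. Depth was 17284019 to 21222490 reads in genes per library. KRT8, KRT18, EPCAM and CDH1, epithelial markers, were all tested and 3 fell. KLK3 and FOLH1, prostate luminal markers, stayed under 10 normalised reads in every library. Of the markers of other cell types, PTPRC, CD3E, LYZ, VWF and DCN were under 10 in every library. PECAM1 and COL1A1 were the 2 tested, and both fell with SLC6A4; their part in the RNA differences was not tested.

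A start within 1000 bp of a peak of the set was found for 1106 genes of the RNA table, and 582 of them (52.6%) passed the filter on low values, against 68.7% of the genes with only other peaks. Level per length was lower too, with a median of 8.91 normalised reads per kb of exon among tested genes of the set and 16.6 among tested genes with only other peaks. Of the 582, 55 rose (9.45%) and 68 fell (11.7%) with SLC6A4, against 10.2% and 9.28% of the 13264 genes tested, by limma on log2(normalised reads + 1). DESeq2 on recovered reads called 36 rises and 40 falls, and limma without empty-vector replicate 2 called 45 falls. Over all genes these counts moved too. DESeq2 called 921 rises and 765 falls of 29977 tested, against 1348 and 1231 of 13264 by limma. Without empty-vector replicate 2, limma called 844 falls of 12932. The median log2 change was -0.07 in the set and 0.01 over all genes tested. At 643 genes every listed peak near the start was in the set, with up peaks not counted. NSDHL and RPL3, among the 643, have an up peak at the start as well. At the other 463 a peak of the set stood beside a peak outside it.

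CDKN2B, a cyclin-dependent kinase inhibitor gene, was among the falls, at 4.77, 0 and 2.05 normalised reads in SLC6A4 libraries and 14.8, 11.2 and 15.1 in empty-vector libraries, with a limma log2 change of -2.49 (SE 0.56, adjusted p = 0.0042). Its log2 change was -1.80 without SLC6A4 replicate 2 and -0.96 with 10 added in place of 1. Its region also fell in H3K4me3, at 206, 220 and 219 CPM in SLC6A4 and 319, 343 and 324 CPM in empty vector. That region spans 25564 bp and also holds other listed peaks, while the peak of the set in it is 375 bp wide. The strand of the RNA counting is not given in the sources used here, so reads from the overlapping antisense gene cannot be told apart. FOS, an immediate early transcription factor gene, had 1.91, 5.61 and 3.07 in SLC6A4 and 15.8, 21.2 and 16.9 in empty vector, a log2 change of -2.14. Both genes were low in every library and their groups did not overlap.

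CXADR, which had the lowest CUT&Tag ratio of the stronger peaks, fell, at 11.4, 7.48 and 7.16 normalised reads in SLC6A4 and 27.4, 22.4 and 28.5 in empty vector (log2 change -1.50, SE 0.30, limma adjusted p = 0.0014). In its region the ChIP went the other way, with log2 changes of 0.24 for H3K4me3Q5ser and 0.60 for H3K4me3. The other named falls were ARHGAP24, a GTPase-activating protein gene (-1.75), MYLIP, a ubiquitin ligase gene for the LDL receptor (-1.56), PID1 (-1.50), PTP4A3, a phosphatase gene (-1.47), and CAPS2 (-1.41). PTP4A3 and CAPS2 did not pass 0.05 with DESeq2 on recovered reads, at adjusted p = 0.10 and 0.082.

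MVK, SQLE and NSDHL, genes of sterol synthesis, were among the rises. MVK, the mevalonate kinase gene, had 148, 174 and 201 normalised reads in SLC6A4 and 88.5, 78.2 and 70.3 in empty vector, with a limma log2 change of 1.12 (SE 0.14, adjusted p = 1.2e-05). Its peak (chr12:109573801-109575248) also lies at the start of MMAB, an enzyme gene of cobalamin metabolism, and MMAB rose by 0.92. That peak had 14.5 CPM in SLC6A4 shTGM2 cells, 19.3 CPM in SLC6A4 cells and 19.2 CPM in control cells. SQLE, squalene epoxidase, rose by 0.99, and its peak had 24.8 CPM in SLC6A4 shTGM2 cells, 31.5 CPM in SLC6A4 cells and 28.7 CPM in control cells. NSDHL, a sterol dehydrogenase gene, rose by 0.95 and MAEA, a subunit gene of a ubiquitin ligase complex, by 0.96. SYDE1 (1.67), ANAPC2 (1.33) and AK5 (1.20) were also called, but each lost its limma call when 1 library was left out. The adjusted p was then 0.093 for SYDE1 without empty-vector replicate 2, 0.16 and 0.070 for ANAPC2 without empty-vector replicates 1 and 3, and 0.091 and 0.073 for AK5 without SLC6A4 replicate 1 and without empty-vector replicate 2. None of these 3 passed with DESeq2 on recovered reads (adjusted p = 0.12, 0.23 and 0.0502).

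**Figure D5:**
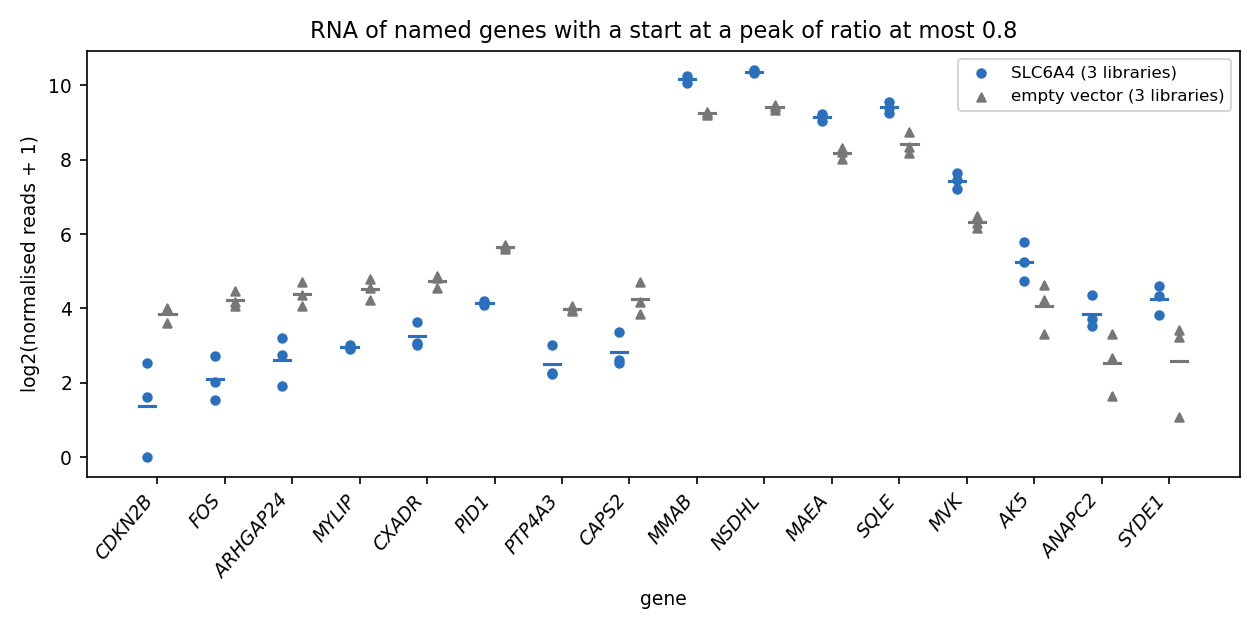
log2(normalised reads + 1) of the 16 named genes with a start at a peak of ratio at most 0.8, with SLC6A4 libraries (blue circles) left of empty-vector libraries (grey triangles) and bars at the means, n = 3 each. The 8 falls stand at the left and the 8 rises at the right, and the groups do not overlap, as the rule that named them required.

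Of 12801 genes with a listed peak within 1000 bp of their start, 1106 (8.64%) had a peak of the set, and the counts below are given beside that share with nothing read from them about the lists. Over all genes tested in RNA, 10.2% rose and 9.28% fell. In the list of cholesterol synthesis 14 of 17 genes had a listed peak and 3 had a peak of the set (MVK, MVD and SQLE), and all 3 rose. The whole list rose in 15 of 17 and fell in 0, with a median log2 change of 1.01. MVD, which decarboxylates mevalonate diphosphate, rose by 0.65 (limma adjusted p = 0.0013). Of the H3K4 methylation machinery 12 of 16 had a listed peak and 1 (RBBP5, a core subunit of the MLL complexes) a peak of the set, with a log2 change of -0.05 (adjusted p = 0.80). Of the whole list 0 rose and 2 fell.

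None of the 15 neuroendocrine and neural factors had a peak of the set, and 3 had a listed peak at all. No gene of the serotonin handling, G1/S, G2/M, epithelial adhesion or mesenchymal lists had one, while 12 of 16 G1/S genes and 10 of 13 G2/M genes had a listed peak. In RNA, 1 of 6 tested neuroendocrine and neural genes rose and 1 fell, 2 of 3 serotonin handling genes rose, 9 of 16 G1/S and 8 of 13 G2/M genes rose with 0 falls, 8 of 13 epithelial adhesion genes fell with 0 rises, and 4 of 7 mesenchymal genes rose and 2 fell.

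Of the cytosolic ribosomal protein genes 60 of 87 had a listed peak and 3 a peak of the set. RPS16 rose by 0.20 (limma adjusted p = 0.0053), and RPL3 and RPS13 did not pass, at -0.10 and 0.18 (adjusted p = 0.13 and 0.090). RPS13 passed without SLC6A4 replicate 1 (limma adjusted p = 0.022) and without empty-vector replicate 1 (0.011). Reads of such genes can be shared with processed pseudogenes. Of the histone genes 51 of 66 had a listed peak and 4 a peak of the set. H4C3, a replication-dependent H4 gene, fell by 0.48 on the log2 scale (limma adjusted p = 0.00014), H4C11 and H1-4 did not pass at -0.32 and -0.28, and H2AC16 was too low to test.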

How the data were processed

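The CUT&Tag table held CPM per peak in 3 libraries as the authors deposited it; its library totals were recovered from the smallest CPM step as 13867035 read pairs for SLC6A4 shTGM2, 11783773 for SLC6A4 and 19447990 for control. Of the values 77.3% to 78.8% were whole pairs (within 0.001 of a pair), and nearly all the rest lay midway between whole pairs. FastQC, Bowtie2, MACS2 and HOMER are named in the submitters' processing notes, and how the peaks were combined is not given in the sources used here. The deposited RNA table holds normalised signal, reads divided by a size factor, aligned with HISAT2 2.1.0 and GRCh38 per the submitters' processing notes; 100% of values gave whole reads (relative tolerance 1e-06). The deposited ChIP table holds estimated counts per region (featureCounts 2.0.3 with fractional sharing, per the file headers), of which 9.78% were not whole and were rounded. ChIP depth was 13511040 to 24765380 read pairs in H3K4me3Q5ser and 3429714 to 5811116 in H3K4me3.

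Members of the set and the gene lists were chosen with earlier results of these data known. RNA used limma 3.58.1 with a trend on log2(value + 1), keeping genes that reached 10 in 3 or more libraries; low genes have their fold changes understated on this scale. ChIP used edgeR 4.0.16 (quasi-likelihood, TMM, all 9 libraries of a mark). DESeq2 1.42.0 was an alternative. edgeR on recovered RNA reads called 1268 rises and 1326 falls. Both fits were checked on simulated data. All p-values are two-sided and adjusted over all features; replicates are separate libraries by label only, so p-values may measure technical spread. Annotation was GENCODE 44, which held 62625 of 62703 gene identifiers, and no peak passed a chromosome end of the reference. Named peaks were the 10 lowest ratios at or above the median level, the 8 highest levels and the 6 widest; named genes were the 8 largest rises and 8 largest falls with groups apart, and list genes. Some genes of the marker lists are not reported here.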

Additional observations from a re-analysis of the deposited data

How the results depend on the processing

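The count of 1216 peaks became 274 at a ratio of at most 0.7, 4329 at 0.9, 653 after division by the median ratio and 24 with a counting interval below 0.8; it stayed at 1216 with at least 1 CPM in SLC6A4 cells. The promoter share of 67.5% was 75.2% within 2500 bp, 55.4% with coding genes only and 83.1% with all transcript starts, the last chosen after seeing the data. DESeq2 on recovered reads called 36 rises and 40 falls in place of 55 and 68, while over all genes it called 921 and 765 in place of 1348 and 1231. Leaving out 1 library at a time gave 38 to 49 rises and 45 to 63 falls, with the 45 falls found without empty-vector replicate 2. Over all genes tested the same fits gave 974 to 1281 rises and 844 to 1150 falls. With a replicate block there were 52 rises and 69 falls in RNA, 477 and 511 in H3K4me3Q5ser and 406 and 380 in H3K4me3. Same-numbered libraries did not deviate together (correlations of -0.0093 to 0.026), and 3 of 6 RNA libraries and 2 of 6 of each mark correlated best with their own number. Leaving out 1 ChIP library gave 461 to 475 rises and 499 to 505 falls of H3K4me3Q5ser, and 378 to 403 rises and 353 to 366 falls of H3K4me3. Where a count moved, the cause was not tested. Depth limits the CUT&Tag ratios, since the set's peaks had a median of 101.5 read pairs in SLC6A4 cells and 1 library a side gives no replicate error.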
